A study of Saccharomyces cerevisiae with 11 samples.

Results

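The enzymes of lower glycolysis are encoded by 10 genes: FBA1, TPI1, TDH1, TDH2, TDH3, PGK1, GPM1, ENO1, ENO2 and CDC19. They were chosen by function, and each was represented by the probe set that the array annotation pairs with it. No probe set of that annotation is paired with TDH2, so this gene was not analysed here, and 9 of the 10 genes were measured and tested among 5415 tested genes of the yeast genome. Each of the 9 had 1 probe set, and none of these carries the name suffix by which the manufacturer marks probes shared between transcripts. The TDH genes, and likewise the ENO genes, have closely similar coding sequences, so that cross-hybridization between isoenzyme transcripts was not tested and a probe set may read more than its own gene.

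These enzymes convert fructose 1,6-bisphosphate to pyruvate and yield the ATP and NADH of glycolysis. In yeast growing on glucose their transcripts are among the most abundant of the cell, and several of their promoters are bound by Rap1 and by Gcr1, the activators of glycolytic genes. Several steps are shared by isoenzymes that differ in when they are expressed: TDH3 is the main glyceraldehyde-3-phosphate dehydrogenase gene of growing cells while TDH1 is known for its expression as growth slows, and ENO2 is induced by glucose while ENO1 is less dependent on it.

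RNA was taken from log phase cultures of 5 Saccharomyces cerevisiae strains, which grew in rich medium with glucose (YPD) between optical densities of 0.2 and 0.8, and poly(A) RNA was hybridized to 1-colour Affymetrix yeast arrays. In all 5 strains, which are MATa, both genomic H2A genes are disrupted or deleted and a centromeric plasmid with HTA1 supplies the only H2A. R11ΔS15 (2 arrays) carries an arginine inserted at position 11 of the H2A tail and lacks serine 15, ΔS15 (2 arrays) lacks serine 15 only, R11 (2 arrays) and K11 (2 arrays) carry an inserted arginine or lysine with serine 15 in place, and WT (3 arrays) carries unchanged H2A. The genotype entry for R11ΔS15 names a lysine, whereas its titles and the strain list of the study name an arginine, which is used here. Nothing in the labels says whether the arrays of a strain came from separate cultures. Chromosome IX was raised on only 1 of the 2 arrays in ΔS15 and in R11ΔS15, so these pairs were not repeats of a single RNA sample. In R11, K11 and WT the spread between arrays may be technical.

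The values are signals on a linear scale, scaled on each array to a trimmed mean of 500.2 to 500.3, and precision is limited by the small number of arrays per strain. Foreign RNAs added to each hybridization, the bacterial bioD and the phage cre, gave 12 probe sets that separated the arrays into a set with a mean log2 signal of 11.54 to 11.56 (all R11ΔS15 and ΔS15 arrays and WT replicate 3, called the low spike-in set) and a set with 11.69 to 11.87 (all R11 and K11 arrays and WT replicates 1 and 2, the high spike-in set). The labels do not name this division. Since WT alone has arrays in both sets, loss of serine 15 and spike-in set cannot be told apart except through WT replicate 3. Chromosome IX stood 1.67-fold higher on R11ΔS15 replicate 2 and on ΔS15 replicate 1, and none of the 10 genes lies on it. The a cell genes matched the mating type, with MFA2, which encodes the a-factor pheromone, at signals of 3708 to 5587, while MF(ALPHA)1, which encodes the alpha-factor of the opposite mating type, lay between 29.1 and 64.2.

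For loss of serine 15, the estimates of the lower glycolysis genes were all below 0 and small, and none passed the test; after quantile normalization of the arrays 8 of the 9 were below 0, with ENO1 at 0.04. As deposited, all 9 genes had lower mean log2 signals in the strains without serine 15 (4 arrays) than in those with it (7 arrays), by 0.08 to 0.36 on the log2 scale, with a median of −0.23 over the 9 genes, where the median over all tested genes was 0.02. After quantile normalization these medians were −0.09 over the 9 genes and −0.01 over all tested genes. No gene passed the test (limma on the log2 signals, strains weighted equally, Benjamini-Hochberg adjustment over 5415 genes, threshold 0.05), and the adjusted p of the 9 genes ranged from 0.064 to 0.306. This count of 0 did not hold without WT replicate 3, when 7 of the 9 genes passed beside 767 of all tested genes. Nor did it hold with array weights (6, beside 475) or with the replicate number as a block (7, beside 1260). Only WT has a replicate 3, so the block gives the same estimates as leaving that array out and is not a separate alternative. The labels give no meaning to the replicate numbers. In the reported fit the background over all genes was the same, with 0 of 5415 past the test, which is 0%, although 1333 had an unadjusted p under 0.05. Of the 9 genes, 8 had an unadjusted p under 0.05 in the lower direction, as had 11.4% of all tested genes, and 46.6% of all tested genes had an estimate below 0. The arrays without serine 15 lay below all arrays with it for TPI1 and CDC19, where 2.14% of all tested genes did so.

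**Figure D1:**
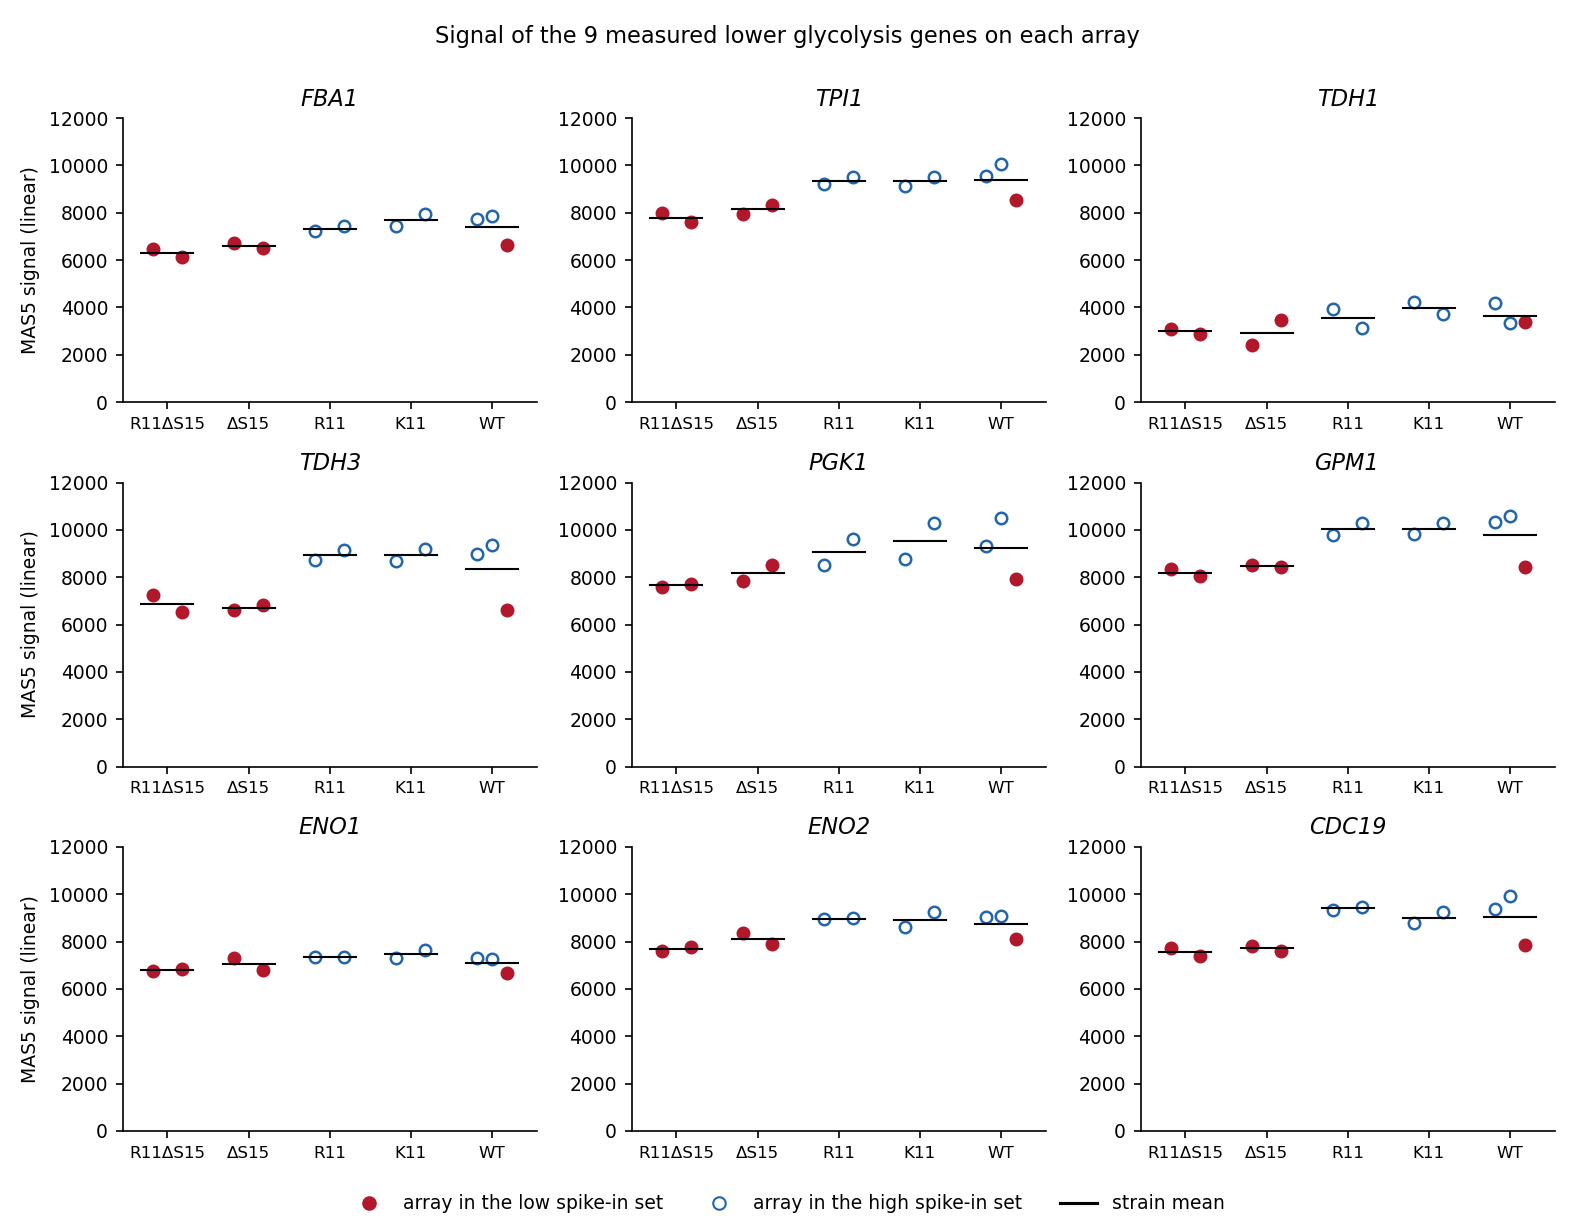
Signal (linear MAS5 scale, vertical axis) of the 9 measured genes on each of the 11 arrays, grouped by strain on the horizontal axis; each point is an array, filled where the array belongs to the low spike-in set and open where it belongs to the high set, and the line is the strain mean. WT replicate 3, the filled point among the WT arrays, lies near the R11ΔS15 and ΔS15 arrays for TDH3 (6616), GPM1 (8436) and CDC19 (7857).

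FBA1 encodes the aldolase that splits fructose 1,6-bisphosphate. Its signal was 6464 and 6130 in R11ΔS15 and 6723 and 6497 in ΔS15, against a lowest value of 6641, a median of 7450 and a highest of 7962 over the 7 arrays with serine 15. The array at 6641 was WT replicate 3, which lay among the arrays without serine 15, while the other 6 lay above all of them. The difference was −0.21 on the log2 scale (95% interval −0.33 to −0.09).

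TPI1 encodes triose phosphate isomerase, which interconverts the products of aldolase. It gave 7991 and 7602 in R11ΔS15 and 7968 and 8316 in ΔS15, against 8545 to 10080 with a median of 9506 over the arrays with serine 15. The groups did not overlap, and the lowest array with serine 15 was again WT replicate 3, at 8545. The difference was −0.23 on the log2 scale (95% interval −0.34 to −0.12, adjusted p in limma 0.064).

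Of the glyceraldehyde-3-phosphate dehydrogenases, TDH3 had the largest difference of the 9 genes. Its signal was 7228 and 6524 in R11ΔS15 and 6610 and 6816 in ΔS15, against 8721 and 9150 in R11, 8688 and 9186 in K11, and 8998, 9378 and 6616 in WT. WT replicate 3 was within the range of the arrays without serine 15, and the other 6 arrays with serine 15 lay between 8688 and 9378. The difference was −0.36 (95% interval −0.54 to −0.17, adjusted p in limma 0.066), and −0.41 to −0.32 when single arrays were left out. With the spike-in set as a term it was 0.06. Against WT replicate 3 alone, the mean of the arrays without serine 15 stood 0.04 higher on the log2 scale. WT replicate 3 itself differed by −0.47 from the mean of WT replicates 1 and 2.

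TDH1 was the dimmest of the 9 probe sets and varied most between arrays of a strain. It gave 3093 and 2878 in R11ΔS15 and 2405 and 3465 in ΔS15, against 3944 and 3150 in R11, 4251 and 3742 in K11, and 4170, 3328 and 3391 in WT. The groups overlapped through ΔS15 replicate 2. In R11, K11 and WT, replicate 1 lay above replicate 2 in 3 of 3 strains, by 0.28 on the log2 scale on average, whereas 7 of the other 8 genes ran the other way in 3 of 3 strains, PGK1 by the most with a mean of −0.19, and ENO1 was mixed. The difference with loss of serine 15 was −0.34 (95% interval −0.57 to −0.10), and its residual SD of 0.22 was the largest of the 9 genes.

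PGK1 encodes phosphoglycerate kinase, the first ATP-yielding step of the pathway. It gave 7605 and 7701 in R11ΔS15 and 7844 and 8535 in ΔS15, against 7908 to 10517 with a median of 9306 over the arrays with serine 15. The groups overlapped, since WT replicate 3 (7908) and R11 replicate 1 (8527) lay below ΔS15 replicate 2. The difference was −0.22 (95% interval −0.39 to −0.06).

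GPM1 encodes phosphoglycerate mutase and was the brightest of the 9 probe sets on average. Its signal was 8350 and 8030 in R11ΔS15 and 8515 and 8451 in ΔS15, against 8436 to 10598 with a median of 10268 over the arrays with serine 15. WT replicate 3, at 8436, lay within the range of the arrays without serine 15, and the other 6 began at 9775. The difference was −0.25 (95% interval −0.38 to −0.12).

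ENO1, the enolase gene less dependent on glucose, had the smallest difference of the 9 genes in size, and its sign turned after quantile normalization (0.04). It gave 6752 and 6839 in R11ΔS15 and 7290 and 6800 in ΔS15, against 7348 and 7355 in R11, 7298 and 7642 in K11, and 7289, 7278 and 6684 in WT. ΔS15 replicate 1 stood as high as WT replicate 1, and WT replicate 3 was the lowest of the 11 arrays. The difference was −0.08 with a 95% interval of −0.18 to 0.02, and its residual SD of 0.05 was the smallest of the 9 genes.

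ENO2, the glucose-induced enolase, gave 7619 and 7761 in R11ΔS15 and 8349 and 7895 in ΔS15, against 8956 and 8979 in R11, 8627 and 9230 in K11, and 9047, 9062 and 8110 in WT. WT replicate 3 fell within the range of ΔS15, and the other 6 arrays with serine 15 lay above all 4 without it. The difference was −0.17 (95% interval −0.27 to −0.07).

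CDC19 encodes pyruvate kinase, the last step of the pathway. It gave 7733 and 7399 in R11ΔS15 and 7824 and 7610 in ΔS15, against 7857 to 9906 with a median of 9340 over the arrays with serine 15. The groups did not overlap, but the gap between ΔS15 replicate 1 at 7824 and WT replicate 3 at 7857 was narrow beside the SD of 184 between the 4 arrays without serine 15. The difference was −0.26 (95% interval −0.39 to −0.13, adjusted p in limma 0.066).

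The single comparisons behind this difference had less precision. Against WT, R11ΔS15 had lower estimates for 9 of 9 genes, as had 49.6% of all tested genes, with a median of −0.25 where the median of all genes was 0.00, and its arrays lay below all WT arrays for 7 of them, all but TDH3 and ENO1, as they did for 12.6% of all tested genes. ΔS15 had lower estimates for 9 of 9 genes, as had 49.2% of all tested genes, with a median of −0.20, and only TPI1 and CDC19 did not overlap WT, as did 7.79% of all tested genes. No gene passed limma's test in either comparison. Without WT replicate 3, however, there were 6 of the 9 genes past it in R11ΔS15 and 4 in ΔS15, beside 128 and 38 of all tested genes. With the replicate number as a block there were 7 and 5, beside 343 and 173. As deposited, 6 of the 9 genes in R11ΔS15 and 4 in ΔS15 had an unadjusted p under 0.05, as had 5.71% and 2.6% of all tested genes in the lower direction. After quantile normalization the medians were −0.073 for R11ΔS15 and −0.079 for ΔS15, and 1 and 2 of the 9 genes had estimates above 0. R11ΔS15 and ΔS15 shared the WT arrays, and set against each other they differed by a median of −0.05, with estimates from −0.10 for PGK1 to 0.05 for TDH1. Both R11ΔS15 arrays lay below both ΔS15 arrays for FBA1, PGK1, GPM1 and ENO2, 4 of the 9 genes, as did 7.94% of all tested genes, and none of the 9 had an unadjusted p under 0.05 in limma, where 0.425% of all tested genes did.

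No difference with the residue inserted at position 11 was detectable in strains that retain serine 15. The median over the 9 genes was 0.04 for R11 against WT and 0.05 for K11 against WT, and single genes ranged from −0.03 to 0.12 in R11 and from −0.01 to 0.14 in K11. The sign of both medians rested on WT replicate 3, without which they were −0.059 in R11 and −0.040 in K11, and estimates above 0 then numbered 1 and 2 of the 9 genes, where they had numbered 5 and 8. No gene of the 9 had an unadjusted p under 0.05 in limma in either comparison, where 0.351% of all tested genes in R11 and 0.425% in K11 did, and the 95% intervals of all 9 genes included 0, reaching from −0.38 to 0.38 for R11 and from −0.20 to 0.49 for K11. Arrays lay above all WT arrays for 1 gene in each of these comparisons, ENO1, where 3.62% and 4.6% of all tested genes did so. R11 and K11 differed from each other by a median of 0.00, with TDH1 lowest at −0.18 and CDC19 highest at 0.06, and no unadjusted p under 0.05 where 0.222% of all tested genes had it. The effect of R11 without serine 15, minus its effect with serine 15 in place, had a median of −0.08 and no unadjusted p under 0.05 among the 9 genes, where 0.129% of all tested genes had it.

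WT replicate 3 lay apart from the other WT arrays for these genes. It was below the mean of WT replicates 1 and 2 for all 9 genes, by 0.12 (ENO1) to 0.47 (TDH3) on the log2 scale, and for 6 of the 9 (FBA1, TPI1, TDH3, GPM1, ENO2 and CDC19) all 5 arrays of the low spike-in set lay below all 6 of the high set, as 7.24% of all tested genes did. The mean of the 9 genes, each centred on its own mean over the arrays, ran from −0.19 to −0.10 on the log2 scale in the low spike-in set and from 0.08 to 0.15 in the high set, with no overlap. Without WT replicate 3, 7 of the 9 genes passed limma's test for loss of serine 15 (all but TDH1 and ENO1), as did 767 of all tested genes. Without ΔS15 replicate 2 there were 2, TPI1 and TDH1, beside 208 of all tested genes. With the spike-in set as a term in the fit, 0 of 9 passed (over all genes 0 passed and 37 had an unadjusted p under 0.05), the estimates ran from −0.21 (TDH1) to 0.06 (TDH3), and TDH3, PGK1, GPM1, ENO1 and CDC19 had estimates above 0, all 9 with intervals that included 0.

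**Figure D2:**
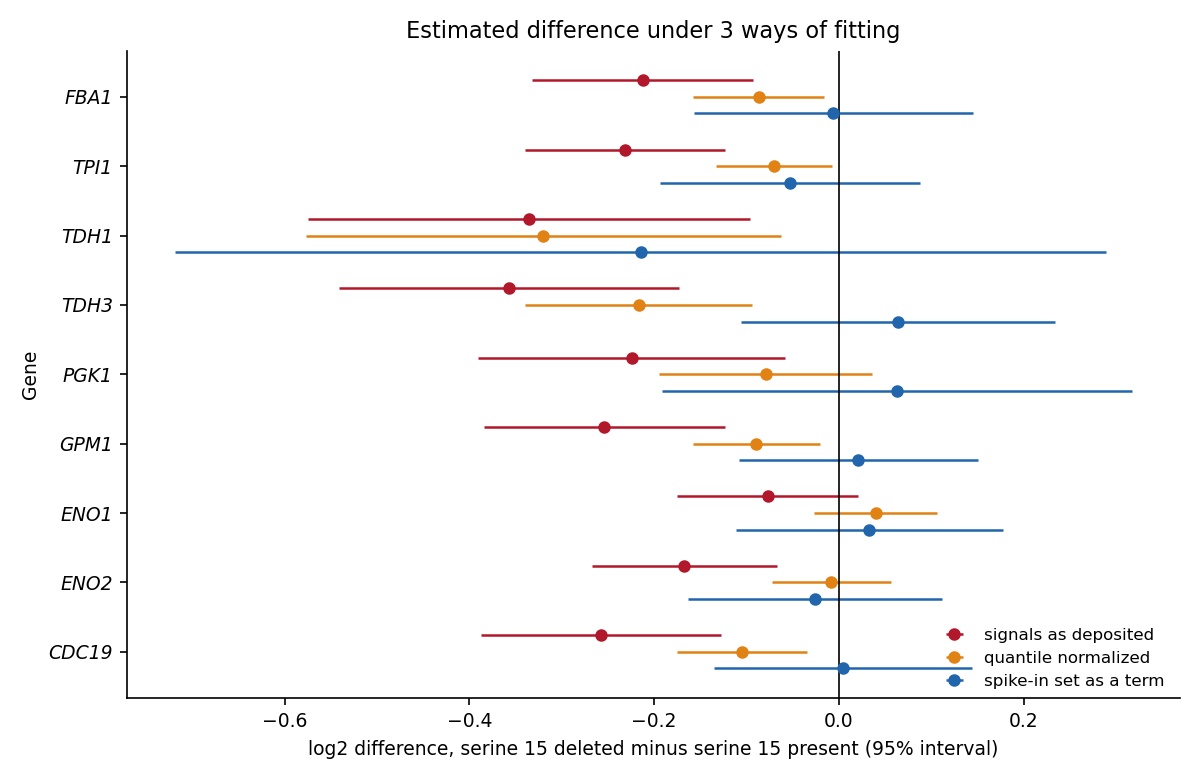
Estimated log2 difference between strains without and with serine 15 (horizontal axis, points with 95% intervals) for each of the 9 genes, from the signals as deposited, after quantile normalization and with the spike-in set as a term. The as-deposited estimates lie between −0.36 and −0.08, and those with the spike-in set as a term lie between −0.21 and 0.06.

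The same direction was measured in RNA that is not from yeast. The 6 cre probe sets, with mean signals of 4853 to 7138, differed by a median of −0.20 between arrays without and with serine 15, and the 6 bioD probe sets (954 to 3012) by a median of −0.18. These 12 probe sets defined the spike-in sets, so their order between the sets follows from that choice. The 6 probe sets of bioC (288 to 445), which were not used for it, had a median of −0.21 and separated the sets without overlap for 3 of 6. As bioC is a further spike-in of the same hybridizations, it is not an independent check of the division. Among yeast genes the difference went with brightness. With the members left out, those of the 25 brightest genes had a median of −0.18 (19 of 20 below 0), the next 75 had −0.14 (69 of 72), the next 400 had −0.06, the next 2000 had 0.00, and the 2915 dimmer genes 0.05. Beside these, ENO1 (−0.08) lay nearer 0 than the median of its class (−0.14), and ENO2 slightly nearer 0 than that of its own (−0.18). The other members lay farther from 0 than the medians of their classes. These were TDH3 (−0.36) and FBA1 against −0.14, TDH1 (−0.34) against −0.06, and CDC19, GPM1, TPI1 and PGK1 against −0.18. The part of brightness and of the spike-in set in the values of the 9 genes was not tested beyond these fits. The signals are relative to each array's trimmed mean, so that less of a transcript per cell and a changed makeup of the RNA pool cannot be told apart.

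**Figure D3:**
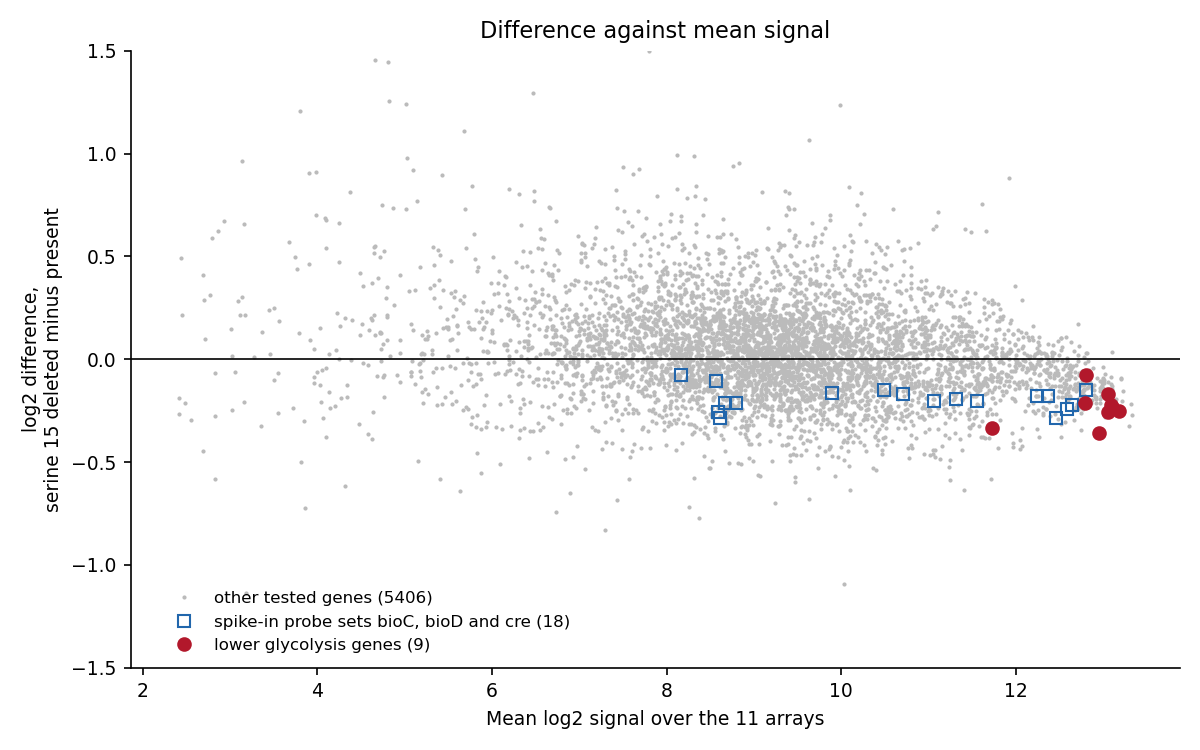
Log2 difference between strains without and with serine 15 (vertical axis) against mean log2 signal over the 11 arrays (horizontal axis) for all tested genes, the 9 lower glycolysis genes and the 18 spike-in probe sets; 5 tested genes lie outside the plotted range. The 9 genes lie at the bright end, where most genes are below 0, and the spike-in probe sets have medians of −0.21 (bioC), −0.18 (bioD) and −0.20 (cre).

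All but TDH1 were measured at the upper end of the arrays' range. Among all yeast probe sets of an array, GPM1 ranked between 4 and 15, PGK1 between 4 and 40, TPI1 between 11 and 32, CDC19 between 11 and 42, ENO2 between 19 and 30, and TDH3 between 22 and 117. ENO1 ranked between 64 and 111, FBA1 between 58 and 123 and TDH1 between 329 and 759. These ranks are of probe set signals and give no order of transcript amounts. GPM1 reached 86.1% to 91.4% of the brightest signal of its array, ENO2 74.0% to 85.3%, and TDH1 24.4% to 38.2%.

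The spacing of signals at this end differed between the spike-in sets. The brightest signal of an array was 9101 to 9859 in the low spike-in set and 11127 to 12247 in the high set. Between the brightest signal and the signal ranked 25 the ratio was 1.19 to 1.22 in the low set and 1.24 to 1.32 in the high set, so that the 25 brightest signals lay within a 1.32-fold range on every array. The residual SD of the log2 signals had a median of 0.11 over the 9 genes and 0.08 over the 100 brightest genes, against 0.17 over all tested genes. Within the 9 genes, TDH1, below the others in signal, had the largest SD (0.22), and ENO1 (0.05) and ENO2 (0.06) the smallest. The SD did not simply fall with signal. TDH3 (0.17) and PGK1 (0.15) stood at percentiles 98 and 96 of the 100 brightest genes, and GPM1 (0.11) at 77. The deposited values hold no flag for saturated probes, so whether these probe sets were saturated was not tested.

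The ratio of the enolase signals differed between the arrays without and with serine 15 in the signals as deposited. The log2 ratio of the ENO1 to the ENO2 signal, which is compared between arrays only and says nothing of the ratio of the transcripts, was −0.17 and −0.18 in R11ΔS15 and −0.20 and −0.22 in ΔS15, against −0.29 and −0.29 in R11, −0.24 and −0.27 in K11, and −0.31, −0.32 and −0.28 in WT. All 4 arrays without serine 15 lay above all 7 with it, and here WT replicate 3 (−0.28) lay with the other arrays that carry serine 15. The mean was −0.19 ± 0.02 without serine 15 (SD, n = 4) and −0.28 ± 0.03 with it (SD, n = 7), a difference of 0.09 or 1.07-fold. An exact two-sided permutation test over 330 regroupings of the arrays gave p = 0.00606, the smallest that 4 arrays against 7 allow. After adjustment over the 2 pairs tested it was 0.0121. This test treats the arrays of a strain as independent, which the labels do not state. Serine 15 differs between strains, so the p does not measure the spread between strains. Within the low spike-in set the difference from WT replicate 3 was 0.09, a value with no test. After quantile normalization the difference was 0.05 with an adjusted permutation p of 0.0606 (exact), so the call was lost under this scaling. ENO2 belonged to the 25 brightest genes, whose median difference was −0.18, and ENO1 to the next 75, with −0.14, and the part of brightness in the ratio was not tested.

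**Figure D4:**
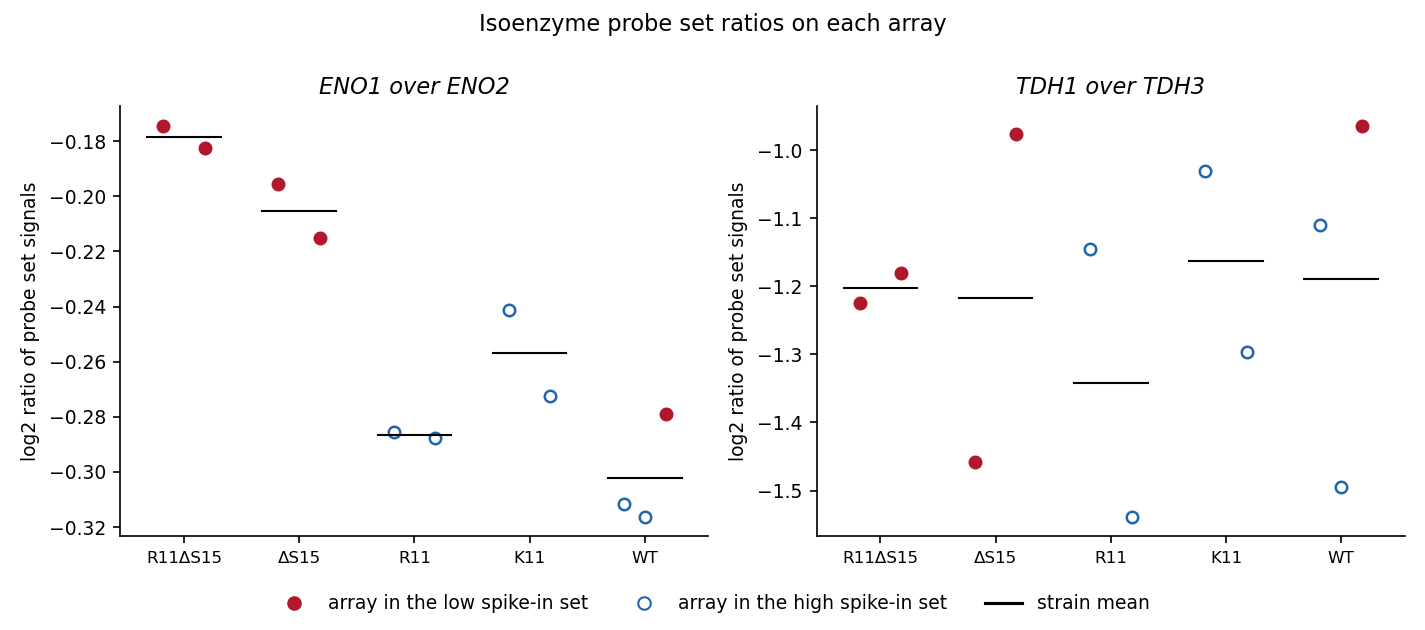
Log2 ratio of the ENO1 to the ENO2 signal (left) and of the TDH1 to the TDH3 signal (right) on each array by strain; points are arrays, filled for the low and open for the high spike-in set, and lines are strain means. For the enolases the 4 arrays without serine 15 lie between −0.22 and −0.17 and the 7 with it between −0.32 and −0.24, while the ranges of the TDH pair overlap.

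For the dehydrogenase pair no difference was detectable. The log2 ratio of the TDH1 to the TDH3 signal averaged −1.21 ± 0.20 without serine 15 (SD, n = 4) and −1.23 ± 0.22 with it (SD, n = 7), a difference of 0.02 (exact two-sided permutation test, p = 0.921, also after adjustment over 2 pairs). The ranges were −1.46 to −0.98 and −1.54 to −0.96, and thus far wider than those of the enolases. The replicates of ΔS15, at −1.46 and −0.98, were the lowest and the highest of the arrays without serine 15. A pair with TDH2 could not be formed.

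TDH1 is also covered by control probe sets for the ends of its transcript, one near each end and a further one in the middle. The 3′ control gave 2751 to 4795 and differed by −0.32 between arrays without and with serine 15, beside the −0.34 of the TDH1 probe set. The middle control (525 to 992) differed by −0.15 and the 5′ control (2110 to 3275) by −0.09, both smaller in size. The ratio of the 3′ to the 5′ signal was 1.14 to 1.42 on arrays of the low spike-in set and 1.43 to 1.73 on those of the high set. For ACT1, the actin gene, which has the same kind of controls, this ratio was 1.04 to 1.11 in the low set and 1.26 to 1.35 in the high set. The ratio of the ends moved with the spike-in set for both genes, and its part in the TDH1 difference was not tested. A second control of the TDH1 middle, whose name marks it as shared between transcripts, gave 7244 to 8793 and a difference of −0.15, which cannot be credited to a single gene.

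**Figure D5:**
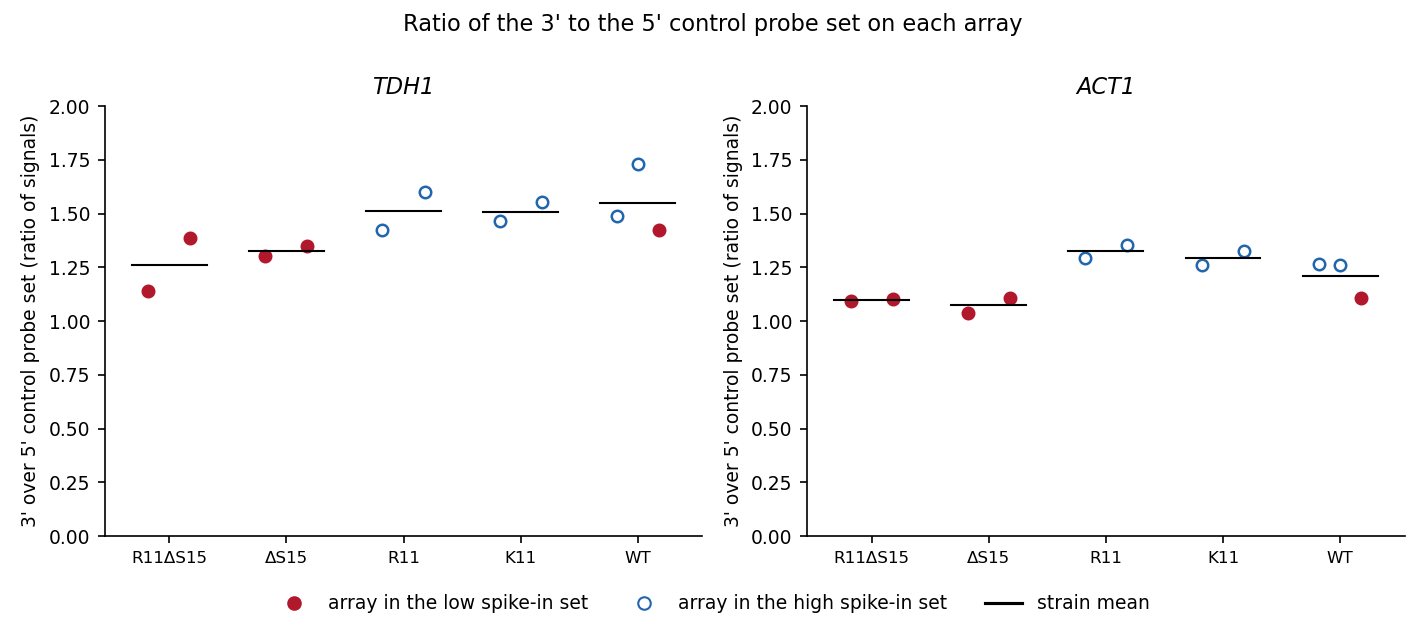
Ratio of the 3′ to the 5′ control probe set signal (vertical axis, linear) of TDH1 (left) and ACT1 (right) on each array by strain; points are arrays, filled for the low and open for the high spike-in set, and lines are strain means. ACT1 ratios were 1.04 to 1.11 in the low set and 1.26 to 1.35 in the high set.

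Other genes of sugar metabolism did not move as a body with the lower glycolysis genes, and none of them passed limma's adjusted test for loss of serine 15. These lists were not matched to the 9 genes in brightness, with which the difference went, and its part in this contrast was not tested. Of the genes named next, mean signals were 1150 for HXK1, 5434 for PFK2, 481 for PYK2 and 150 for ERR3. In upper glycolysis, 3 of 6 genes had lower and 3 higher estimates, with a median of 0.00. HXK1, a hexokinase known to be repressed by glucose, gave 2149 and 2023 in R11ΔS15 and 1698 and 1288 in ΔS15, against 387 to 1243 over the arrays with serine 15, a difference of 1.24 (adjusted p in limma 0.064) in which WT replicate 3 was the highest array with serine 15. PFK2, a phosphofructokinase subunit, differed by −0.20, with WT replicate 3 (5313) the lowest array with serine 15 but above all arrays without it. Of the minor relatives of the 9 genes, 4 of 6 were tested and 3 had higher estimates. Among them was PYK2, the second pyruvate kinase gene, with 604 and 570 in R11ΔS15 and 528 and 575 in ΔS15. Its arrays with serine 15 gave 337 to 552 (0.44, adjusted p in limma 0.069). ERR3, an enolase-related gene whose probe set is marked as shared, was at 0.38. WT replicate 3 was the highest array with serine 15 for PYK2 (552) and ERR3 (197), and for ERR3 it lay above all arrays without serine 15.

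On the way from pyruvate to ethanol, 5 of 8 genes had lower estimates, and the median was −0.03. PDC6, a minor pyruvate decarboxylase, differed by 0.39 and ADH3, the mitochondrial alcohol dehydrogenase, by −0.25. PDC1 and ADH1, the main genes of these steps, differed by −0.19 and −0.23. They were singled out for their bright signal after their values were seen. Their mean signals were 7762 and 6710, that of ADH1 below all members but TDH1. ADH1 averaged 6059 without serine 15 and 7082 with it. PGI1 of upper glycolysis, with a mean signal of 6543, averaged 6351 without serine 15 and 6653 with it, a smaller difference. WT replicate 3 lay within the range of the arrays without serine 15 for PDC6 (368) and ADH1 (5950). It lay below them for ADH3 (2432) and above them for PDC1 (7456). In the glycerol branch 3 of 4 genes were lower, with GPD2 at −0.77 and GPD1, the osmotically induced glycerol-3-phosphate dehydrogenase, at 0.35. For GPD2, WT replicate 3 (201) lay within the range of the arrays without serine 15 (181 to 342), below the other arrays with it. For GPD1 it (2379) was the highest array with serine 15, below all arrays without it. In gluconeogenesis 4 of 5 were lower, with MDH2 at −0.42, while PYC1, a pyruvate carboxylase, was at 0.57. WT replicate 3 (1926 and 2135) lay within the range of the arrays without serine 15 for both. PYC1, on chromosome VII, gave 2862 and 3296 on the arrays with raised chromosome IX. The other arrays without serine 15, at 1903 and 1901, lay within the range of those with it (1387 to 2135). Of the regulators 3 of 7 were lower and 4 higher, including PFK26 (0.57) and PFK27 (0.55), which make fructose 2,6-bisphosphate. WT replicate 3 lay above all arrays without serine 15 for PFK27 (874), but among the other arrays with serine 15 for PFK26 (539). PFK26 lies on chromosome IX and gave 1093 and 1125 on the arrays on which that chromosome was raised, against 612 and 566 on the other arrays without serine 15. HTA1, carried on the plasmid, differed by −0.13 (adjusted p in limma 0.141).

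The genes outside these lists whose log2 signals ran most like the mean of the 9 genes over the 11 arrays were RPL35A (Pearson r = 0.98), a ribosomal protein gene, TEF2 (0.98), which encodes translation elongation factor EF-1 alpha, GUK1 (0.98), guanylate kinase, TRM3 (0.98), a tRNA methyltransferase, and AHP1 (0.98), a thioredoxin peroxidase. These are descriptions over arrays that share the division by spike-in set. All 5 were lower in the strains without serine 15, by 0.18 (AHP1) to 0.44 (TRM3) on the log2 scale. This direction follows from their choice by correlation over the same arrays.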

How the data were processed

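The deposited values of the 11 Affymetrix yeast arrays are linear intensities, which the authors obtained with MAS5; the version of MAS5 is not given in the sources used here. Probe sets were named with the platform annotation table, and genes with several were represented by the brightest. Genes whose mean log2 signal exceeded the 95th percentile of the probe sets for S. pombe genes (signal 5.10) were tested, 5415 in all. The log2 values entered limma 3.58.1 (R 4.3.3), where each strain had a coefficient, all 11 arrays shared 1 estimate of the spread, and variances were moderated along the mean signal; Benjamini-Hochberg adjustment covered all tested genes. The fit was tested on simulated data. Isoenzyme ratios were compared with exact permutation tests in scipy 1.17.1, which regrouped single arrays and not strains. Adjustment covered 2 pairs, since TDH2 had no probe set. Spike-in sets were defined from 12 bioD and cre probe sets. The named genes were all members, any listed gene past a test or otherwise the 2 largest differences of each list, HTA1, and the 5 genes most correlated with the members' mean. PDC1, ADH1 and PGI1 were named besides, for their bright signal. The members, lists and alternatives were chosen with earlier results of these data known.

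Alternatives were quantile normalization, an offset of 50, other probe set filters, centring of arrays, no trend, array weights, the strains compared only, the replicate number as a block, the spike-in set as a term, and leaving out arrays. Plots used matplotlib 3.10.9 (Python 3.11.15).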

Additional observations from a re-analysis of the deposited data

Results flagged for a closer look

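In 18 groups of arrays tested for a value far from the others (each of the 9 genes, without and with serine 15), 4 were marked. Chance alone marks about 1 in 20 groups where groups are independent. Here the genes vary together over the same arrays, so the count cannot be set against that rate. All marks but 1 fell on WT replicate 3. TDH3 on WT replicate 3 was the lowest of the 7 arrays with serine 15, at 6616, with a gap of 0.781 of the whole range to the next array. GPM1 on WT replicate 3 was the lowest of the same arrays, at 8436, with a gap of 0.646 of the range. ENO1 on WT replicate 3 was again the lowest, at 6684, with a gap of 0.636. ENO1 on ΔS15 replicate 1 was the highest of the 4 arrays without serine 15, at 7290, with a gap of 0.832.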

How the results depend on the processing

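The number of arrays and the single WT array in the low spike-in set limit all of these values. As no other strain has a replicate 3, the replicate block gives the same estimates as leaving out WT replicate 3. For loss of serine 15, members past limma's test numbered 0 as reported, 7 with the replicate number as a block and 6 with array weights, and 0 to 7 when single arrays were left out; over all genes the reported count was 0, against 1260 with the block, 475 with array weights, 767 without WT replicate 3 and 208 without ΔS15 replicate 2. For ΔS15 against WT the members numbered 5 with the block and 0 to 4 without single arrays (all genes 173 with the block and 38 without WT replicate 3, against 0), and for R11ΔS15 against WT 7 with the block and 0 to 6 without single arrays (all genes 343 with the block and 128 without WT replicate 3, against 0). Without R11 replicate 2, 1 gene outside the members, YJR154W, was called between R11 and WT (0 as reported), and is named here for its call alone.

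The members' median for loss of serine 15 was −0.087 after quantile normalization and 0.0042 with the spike-in set as a term, and −0.26 to −0.21 without single arrays. For ΔS15 against WT it was −0.079 after quantile normalization, −0.27 with the replicate block, −0.27 with array weights and 0.0015 with the spike-in term (−0.27 to −0.14 without single arrays). For R11ΔS15 against WT it was −0.073 after quantile normalization, −0.33 with the replicate block, −0.32 with array weights and −0.055 with the spike-in term (−0.33 to −0.18 without single arrays). For R11 and K11 against WT it was −0.059 and −0.040 both with the replicate block and with the spike-in term (−0.059 to 0.075 and −0.040 to 0.098 without single arrays). In these comparisons both terms amount to leaving out WT replicate 3, so their equal values are the same estimate. R11ΔS15 against ΔS15 gave 0.032 after quantile normalization. The difference between the R11 effects gave 0.0024 after quantile normalization, 0.0075 with the replicate block and with the spike-in term, and −0.0032 with array weights (−0.14 to 0.0075 without single arrays). The 0.0075 is likewise the value without WT replicate 3.

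With the spike-in set as a term, TDH3 (0.064), PGK1 (0.063), GPM1 (0.021), ENO1 (0.033) and CDC19 (0.0042) turned above 0 for loss of serine 15, as ENO1 did after quantile normalization (0.040). The ENO1 to ENO2 difference was 0.052 after quantile normalization and 0.090 without the 2 arrays with raised chromosome IX, where the adjusted exact permutation p of 0.111 is the smallest that 2 arrays against 7 allow; it was 0.087 to 0.10 without single arrays. The TDH1 to TDH3 difference turned to −0.11 after quantile normalization and to −0.25 against WT replicate 3, and was −0.062 to 0.098 without single arrays. The cause of these changes was not tested.

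The reported fit has no pairing, since the labels give no meaning to the replicate numbers. Deviations of arrays with the same number correlated at 0.49 to 0.66 between pairs of the strains R11, K11 and WT, and at −0.05 to 0.21 in pairs with a strain that lacks serine 15.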
